A study of Mus musculus with 38 samples.

Results

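Eef1a1, Eef1b2, Eef1d, Eef1g, Eef1e1, Eef2, Tpt1 and Pabpc1 were taken by gene symbol from the deposited table of polysome and non-polysome RNA, as 8 of its 23125 genes. They hold the cytosolic translation elongation factors, a p18 protein related to them (Eef1e1), and mRNAs (Tpt1, Pabpc1) known for a terminal oligopyrimidine (TOP) start. All 8 passed the minimum for testing, a geometric mean of at least 0.1 FPKM (fragments per kilobase of transcript, scaled to library size) over the 36 libraries, which 7967 genes met, although Pabpc1 passed only through its two-cell libraries. Tpt1 and Eef1g passed the tests most often, 10 and 8 times among 22 comparisons and 1 stage test. The share of all tested genes that passed ran from 0.163% to 62.9% in these tests. From GV to MII polysomes Tpt1 and Eef1g moved in opposite directions: Tpt1 fell 5.23-fold, while Eef1g rose from near the floor of detection. Once the values of its pseudogenes were added, Eef1g passed in none of the tests, although the summed polysome libraries of GV and MII did not overlap. By its own row Eef2 had the highest polysome level of the 8, a mean of 51.9 FPKM over 18 libraries. Eef1a1, Eef1g, Tpt1 and Pabpc1 have near-identical copies that held a large part of the summed FPKM, and the division of reads among these copies was not tested, so the values of these 4 genes are uncertain. For Eef1b2 the copy held little in the median library, but the member's own share went down to 16.9% outside polysomes in two-cell M.

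Oocytes and embryos came from wild-type ICR females at least 6 weeks old that had been stimulated with PMSG, a gonadotropin, and embryos were obtained after hCG and mating with males of the same strain. The 6 stages were germinal vesicle oocytes held in prophase with IBMX (GV), oocytes in the second meiotic metaphase (MII), zygotes in interphase and in M-phase (zygote and zygote M), and embryos at the two-cell stage in interphase and in M-phase (two-cell and two-cell M). Nocodazole was used to hold the 2 embryo groups in M-phase. It is a microtubule poison, and its effect and that of mitosis cannot be told apart in them. Lysates made with cycloheximide were run on sucrose gradients, of whose 10 fractions the first 5 were pooled as the non-polysome sample and the 5 heavier ones as the polysome sample. Each stage and fraction had 3 libraries, named A to C (B to D for zygotes), described by the series as biological triplicates. The values are means ± SD of these 3 libraries unless stated otherwise.

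In elongation, eEF1A (Eef1a1) carries aminoacyl-tRNA to the ribosome as a GTP-bound complex, and the eEF1B complex reloads it with GTP, with eEF1B2 (Eef1b2) and eEF1D (Eef1d) as exchange subunits and eEF1G (Eef1g) as the scaffold. eEF2 (Eef2) then moves the ribosome along the mRNA by one codon. Eef1e1, or AIMP3, shares sequence with eEF1B subunits and sits in the multisynthetase complex. Tpt1 encodes the translationally controlled tumour protein, and Pabpc1 the cytoplasmic poly(A)-binding protein, which joins mRNA tail and cap. Many mRNAs of this kind begin at the cap with a C followed by a run of pyrimidines, the TOP motif, through which mTOR and LARP1 control how far they are loaded with ribosomes. Maturing oocytes and early embryos work largely with stored maternal mRNA.

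The annotated starts of the members were looked at first, since the TOP motif is read from the start of the mRNA. Of the 8 genes, 5 had an entry in the RefSeq promoter table (GRCm38.p6), while Eef1d, Eef1g and Pabpc1 had none. The sequences below run from 10 bases before the annotated start to 20 bases from it, 5′ to 3′ on the strand of the gene, and all 5 are shown. Capitals mark a run of at least 5 C or T that begins with C at a position from -10 to +10, the first transcribed base being +1.
Eef1a1 (chr9:78481705-78481734, - strand): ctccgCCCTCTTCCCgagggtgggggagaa
Eef1b2 (chr1:63176821-63176850, + strand): ctgcagttccgccggaagtagccgaggcct
Eef1e1 (chr13:38659009-38659038, - strand): gtcctagctgtgcaggccccgcctccctag
Eef2 (chr10:81176621-81176650, + strand): aaggccgggcgttgacgtcagcggtctctt
Tpt1 (chr14:75845246-75845275, + strand): cgctgacgacagttccgggggagccgcgga

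At the annotated start, only Eef1a1 of the 5 had such a run, of 10 pyrimidines from position -5, and 0 of the 5 had one exactly at +1. The first run of this kind downstream of +1 began at position 16 in Eef2 (7 bases), 41 in Tpt1 (6 bases), 33 in Eef1b2 (5 bases) and 12 in Eef1e1 (7 bases). Over all 32851 promoters of the table, 29.7% had a run of 5 or more from -10 to +10 and 2.51% one at +1. Of 72 promoters of cytosolic ribosomal protein genes, the largest TOP family, 39 had a run near the start and 14 one at +1. A run is a match of letters only, and annotated starts need not be those used in oocytes.

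The second feature that bears on the values is how far each member can be told from its pseudogenes. Pseudogenes that matched a coding sequence at 95% identity or more over at least 150 bases were counted in the genome annotation and in the deposited table. Eef1a1 had 9 annotated, 6 of them in the table, Eef1g had 4 and 2, Tpt1 3 and 3, and Eef1b2, Eef2 and Pabpc1 had 1 each, which is in the table, while Eef1d and Eef1e1 had 0. All of these were annotated as processed except that of Eef1b2, Gm43712. For Eef1d, the processed pseudogene Gm11675 fell just under the cut and was not added. It is in the deposited table and matches at 94.4% over the whole coding sequence. Tpt1-ps3 on chromosome 6 is identical to Tpt1 over all 516 coding bases, so that 367 of 367 possible 150-base windows (the read length) are the same in both. Gm4366 on chromosome 7 matches Eef1g at 99.6%, with 59.2% of 1162 windows identical and a longest shared run of 461 bases. It differs from the Eef1g coding sequence at 5 positions, G246A, C676T, C712T, G759T and G1221A, counted from 1 at the start codon with the base of Eef1g first. The closest copy of Eef1a1, Gm13456 on chromosome 2, matches at 98.6% and shares 12.4% of 1237 windows. The stretch from coding base 653 to 712 (GRCm38) shows how little separates Eef1g from Gm4366, with capitals at the 2 positions where they differ.
Eef1g (chr19:8972904-8972963, + strand): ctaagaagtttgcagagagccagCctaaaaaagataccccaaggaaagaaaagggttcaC
Gm4366 (chr7:116825112-116825171, - strand): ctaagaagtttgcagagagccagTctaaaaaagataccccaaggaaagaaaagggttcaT

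The share of the summed FPKM of a member and its copies that stood in the member's own row had a median over the 36 libraries of 100% for Eef1d and Eef1e1, 97.7% for Eef2, 95.6% for Eef1b2, 59.0% for Pabpc1, 51.5% for Eef1a1, 9.58% for Tpt1 (7.61% to 28.0%) and 4.49% for Eef1g (0.815% to 100%). Most of the summed FPKM of Tpt1 and Eef1g thus stood in the rows of pseudogenes, and how the reads were divided among the copies was not tested. In GV polysomes Tpt1-ps3 had 103 ± 26.1 FPKM beside 11.8 ± 6.27 for Tpt1. In MII polysomes Gm4366 had 35.2 ± 6.44 FPKM beside 1.66 ± 0.361 for Eef1g. Where adding the copies changed a call, the value with copies is given beside the result.

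**Figure D1:**
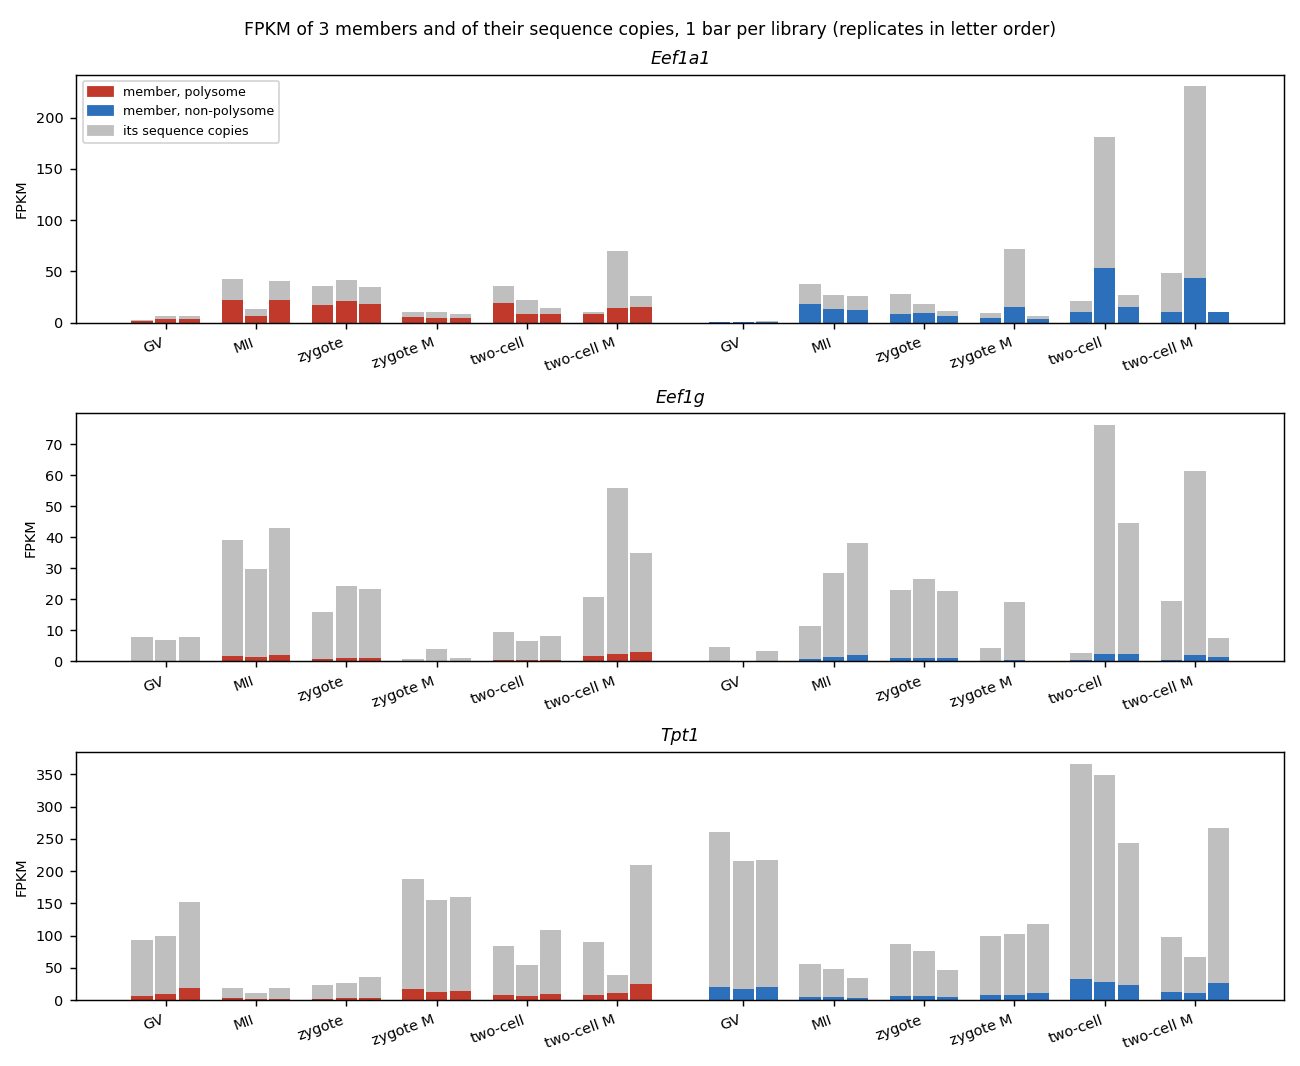
Stacked bars of FPKM (linear axis from 0) for Eef1a1, Eef1g and Tpt1, with 1 bar per library, polysome libraries on the left and non-polysome libraries on the right. The coloured part is the member's own row and the grey part the sum of its sequence copies. Grey takes up most of the bar for Eef1g (median own share 4.49%) and Tpt1 (9.58%), and about as much as colour for Eef1a1 (51.5%).

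Depth recovered from genes with 1 exon was 8.49e+06 to 2.67e+07 fragments per library, and 3 fragments were taken as the floor of detection. All 11 oocyte markers were above 0.1 FPKM in at least 1 library of every group, and their sum was lowest in two-cell M polysomes (125 to 355 FPKM) and highest in the GV groups. Of 8 markers of two-cell embryos after genome activation, 8 were above 0.1 FPKM in each two-cell and two-cell M group, and 3 to 6 in the others. Their sum did not single out these groups in polysomes. It was 126 to 192 FPKM in two-cell and 16.6 to 149 in two-cell M, but 176 to 323 in GV and 105 to 209 in zygote M. In MII and zygote polysomes it was 42.0 to 65.5 FPKM. Outside polysomes it was 418 to 717 FPKM in two-cell, 24.8 to 410 in two-cell M and 47.3 to 204 in the other stages. Among markers of other cells, the summed level of 4 blood genes was at the floor of 0.04 FPKM in GV and reached 34.3 to 83.7 FPKM in two-cell polysomes and 24.4 to 42.5 in two-cell M polysomes. Outside polysomes it was 99.7 to 162 FPKM in two-cell and 0.04 to 52.6 in two-cell M embryos. That sum was Hba-a1 and Hba-a2, while the beta globins Hbb-bs and Hbb-bt were at 0.0404 FPKM or less in these two-cell groups. The sum of 11 markers of cumulus and granulosa cells was at most 23.7 FPKM in any library and 4.67 to 15.8 in two-cell M polysomes. In two-cell embryos it was 0.112 to 1.05 in polysomes and 8.62 to 20.8 outside them, and in two-cell M embryos 6.78 to 19.2 outside polysomes. It was 0.922 to 4.81 in MII polysomes and 0.215 to 23.7 outside them, against at most 0.356 in GV, with Fshr, Inhba, Has2 and Tnfaip6 at or under 0.1 throughout. Few of the 11 markers made up these sums. Above 0.1 FPKM in any library were 3 in MII polysomes and 1 outside them. In two-cell these were 2 and 5, and in two-cell M 4 and 2. The part of blood and cumulus RNA in the results on MII and two-cell groups was not tested. Log2 values of replicate libraries correlated least in the two-cell non-polysome group (lowest r 0.584) and most in zygote polysomes (lowest r 0.956).

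Eef1a1, on chromosome 9 (GRCm38 chr9:78478449-78489151), had the lowest polysome level in GV oocytes, at 1.55, 3.32 and 3.72 FPKM in the 3 libraries. Zygotes had 17.0, 21.3 and 18.2 FPKM, all above GV, which was 6.99-fold lower (log2 fold change -2.81, SE 0.79, adjusted p = 0.033, limma). MII oocytes had 22.5, 6.73 and 22.0 FPKM, zygotes in M-phase 5.45, 4.61 and 4.45. All zygote M libraries lay below every zygote library and above every GV library, and MII library B was the closest of its group to zygote M. The order of geometric means in polysomes was zygote, MII, two-cell M and two-cell, whose libraries overlapped from one to the next, followed without overlap by zygote M and then GV. Two-cell M (12.6 ± 3.96) and two-cell (11.6 ± 6.33) overlapped. FPKM is a share of the RNA of a library, so less of an mRNA per cell, fewer cells that hold it, and more RNA of other genes cannot be told apart in these pooled samples.

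The non-polysome fraction held 0.0763, 0.751 and 0.918 FPKM of Eef1a1 in GV and 18.2, 13.3 and 12.1 in MII oocytes, with no overlap. It rose 38.1-fold from GV to MII (log2 fold change 5.25, SE 0.79, adjusted p = 3.4e-05), with log2 values of 4.10 to 5.90 when single libraries were left out. GV library A held an estimated 3 fragments, the floor of detection, so the size of the fold leans on it. Without that library the log2 fold change was 4.10. The cumulus and granulosa sum was 0.215 to 23.7 FPKM in these MII libraries and 0.14 to 0.356 in the GV ones. Only 1 of its 11 markers was above 0.1 FPKM in any of these MII libraries, and 2 in the GV ones. The polysome change between the same stages was 2.48 (SE 0.79, adjusted p = 0.062), which did not pass, although it did with polysome libraries alone (adjusted p = 0.0054). In GV oocytes Eef1a1 was 7.15-fold higher in polysomes than outside them (log2 fold change 2.84, SE 0.79, adjusted p = 0.036). Without the same non-polysome library A this log2 fold change was 1.69. After the pseudogenes were added, the difference between GV and zygote was -2.93 (adjusted p = 0.087) and no longer passed, whereas the non-polysome change from GV to MII was 6.03 (adjusted p = 0.00011) and the GV difference between fractions 3.43 (adjusted p = 0.041). The call of GV against zygote was also lost without GV library A or B or any 1 of the zygote libraries (-3.04 to -2.41), and with median centring it was -2.73 (adjusted p = 0.054). With a replicate block by library letter this call was lost too, at -2.69 (adjusted p = 0.075). That of GV polysomes against non-polysomes was lost without GV non-polysome library A or any 1 of the GV polysome libraries (1.69 to 3.48), and also with 1 added to FPKM, without a filter, with median centring and with only these groups (adjusted p = 0.056 to 0.18).

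Of the eEF1B subunits, Eef1b2 (chr1:63176825-63180486) was called in 0 of the 22 comparisons, and its groups overlapped with their neighbours throughout the order of polysome levels. Its polysome means ran from 10.0 ± 3.66 FPKM in GV to 4.94 ± 3.82 in two-cell embryos, and its stage effect had an adjusted p of 0.73. Single libraries ranged from 0.560 to 16.3 FPKM in polysomes, both in two-cell M (16.3, 0.560 and 6.38). In the non-polysome fraction they ranged from 0.420 to 14.3 FPKM. In polysomes the spread within two-cell M thus covered the whole range of the stages, while outside them two-cell M ran from 0.702 to 12.1 FPKM.

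Eef1d (chr15:75894205-75909556), the other exchange subunit, had no sequence copies and its stages were mostly apart in polysomes. Polysome libraries had 23.7, 23.8 and 33.0 FPKM in MII and 1.66, 2.03 and 2.17 in GV oocytes. Zygotes had 8.2, 12.9 and 11.2 FPKM and zygotes in M-phase 0.471, 0.730 and 1.22. These groups did not overlap, and in the order of levels MII, zygote and two-cell M each stood apart from the next, GV and two-cell overlapped, and zygote M was lowest. MII was 35.4-fold above zygote M (log2 fold change 5.14, SE 1.17, adjusted p = 0.0032) and 7.27-fold above two-cell M (log2 fold change 2.86, SE 1.17, adjusted p = 0.042). The latter was not called once any 1 of its 6 libraries was left out (2.62 to 3.04), and was 0.66 (adjusted p = 0.7) with each library centred on its median and 2.86 (adjusted p = 0.065) without a filter. The change from GV to MII (log2 fold change 3.77, SE 1.17, adjusted p = 0.053) and that from zygote to zygote M (log2 fold change -3.82, SE 1.17, adjusted p = 0.051) fell just short of the threshold, and both passed in the fit of polysome libraries alone (adjusted p = 5.4e-05 and 5.4e-05).

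In the non-polysome fraction Eef1d showed the same order of MII above zygote above the rest, with 16.6, 26.2 and 29.1 FPKM in MII against 1.14, 1.44 and 2.20 in GV. This was a 15.2-fold rise (log2 fold change 3.92, SE 1.17, adjusted p = 0.02), which was lost without MII library B or C or GV library A or B (3.71 to 4.18), with median centring (adjusted p = 0.072) and with non-polysome libraries alone (adjusted p = 0.14). Zygotes had 8.30, 10.2 and 10.2 FPKM and zygotes in M-phase 0.0191, 0.0221 and 0.826, where libraries A and B held an estimated 0 fragments each and library C 45. The fall to zygote M (log2 fold change -7.08, SE 1.17, adjusted p = 0.00017) was -5.80 (adjusted p = 3.8e-05) when values under 3 fragments were raised to that floor. No fold is given for it, since 2 of the 3 libraries were under the floor.

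Eef1g (chr19:8967041-8978479), the scaffold of eEF1B, had few fragments of its own. GV polysomes had 0.0752, 0.0655 and 0.204 FPKM, an estimated 3, 2 and 9 fragments, and MII polysomes 1.68, 1.29 and 2.01 FPKM. All MII libraries lay above all GV libraries (log2 fold change 4.03, SE 0.99, adjusted p = 0.011), and with values raised to the floor the difference was 3.86 (adjusted p = 0.0014). No fold is given, since 2 of the 3 GV libraries were under the floor. Zygotes had 0.639, 1.11 and 0.939 FPKM, zygotes in M-phase 0.0862, 0.194 and 0.0630, an estimated 3, 7 and 2 fragments. MII lay above zygote M (log2 fold change 4.01, SE 0.99, adjusted p = 0.0062), by 3.92 (adjusted p = 0.00068) with values raised to the floor. Two-cell embryos had 0.491, 0.414 and 0.366 FPKM and two-cell embryos in M-phase 1.76, 2.51 and 3.01, 5.64-fold more and without overlap (log2 fold change 2.5, SE 0.99, adjusted p = 0.049). The order of polysome levels was two-cell M and MII, which overlapped, then zygote and two-cell, each apart from the next, then zygote M and GV, which overlapped.

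Outside polysomes Eef1g rose from 0.116, 0.0328 and 0.213 FPKM in GV to 0.675, 1.34 and 2.00 in MII (log2 fold change 3.70, SE 0.99, adjusted p = 0.0098) and fell from 0.985, 1.10 and 1.20 FPKM in zygotes to 0.123, 0.580 and 0.01 in zygote M (log2 fold change -3.61, SE 0.99, adjusted p = 0.018). With Gm4366 and Gm5525 added, Eef1g was called in 0 comparisons: MII against GV in polysomes became 2.30 (adjusted p = 0.54), two-cell M against two-cell embryos 2.11 (adjusted p = 0.36) and MII against zygote M 4.6 (adjusted p = 0.086). Outside polysomes, MII against GV became 4.87 (adjusted p = 0.054) and zygote M against zygote -4.68 (adjusted p = 0.09). The summed level was 7.51 ± 0.598 FPKM in GV, 37.3 ± 6.83 in MII, 21.2 ± 4.67 in zygote, 1.98 ± 1.84 in zygote M, 8.04 ± 1.43 in two-cell embryos and 37.2 ± 17.6 in two-cell M polysomes. The summed means were thus also higher in MII and two-cell M than in GV, zygote M and two-cell, but the differences did not pass in the fit of all libraries. The call of MII against GV was lost without MII polysome library C or GV library B (3.72 to 4.54), that in the non-polysome fraction without MII library C or GV library B (2.95 to 4.30), and that of two-cell M against two-cell without any 1 of its 6 libraries (2.32 to 2.71). In non-polysomes, zygote M against zygote was lost without zygote library C or D or zygote M library C (-4.96 to -2.03), and it passed under only 4 of the 11 alternatives run for it, being lost with 1 added to FPKM, both scalings, both smaller sets of libraries, the replicate block and the copies. The non-polysome call of MII against GV was lost with that fraction alone (adjusted p = 0.081). That of two-cell M against two-cell in polysomes was lost without a filter (adjusted p = 0.08) and with the replicate block (adjusted p = 0.06).

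Eef1e1 (chr13:38644207-38659058), the AIMP3 gene, was low and overlapped between neighbouring stages in polysomes. Its means were 1.18 ± 1.06 FPKM in GV, 2.71 ± 1.25 in MII, 3.58 ± 0.386 in zygote, 1.92 ± 0.708 in zygote M, 1.27 ± 0.576 in two-cell embryos and 1.27 ± 0.140 in two-cell M (stage effect adjusted p = 0.45). Among all comparisons it was called only in the non-polysome fraction of two-cell M against two-cell (log2 fold change 3.96, SE 1.13, adjusted p = 0.0069). There the two-cell libraries had 0.01, 0.402 and 1.26 FPKM and the two-cell M libraries 5.10, 1.02 and 3.72, which overlap. The call rests on two-cell library A, at 0.01 FPKM, the value listed for 0 fragments, without which the log2 fold change was 1.91 and no longer passed. It was also lost in a fit of the 2 groups alone (adjusted p = 0.31).

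Eef2 (chr10:81176631-81182498), the translocase, was the highest member in polysomes by its own row. With copies added, the mean of Tpt1 was above that of Eef2 in GV and zygote M and in both groups of two-cell embryos (113 ± 87.5 against 111 ± 18.7 FPKM in two-cell M, which overlap). Zygotes in M-phase had 24.2, 22.2 and 23.2 FPKM of Eef2, the lowest group, and zygotes 33.8, 38.1 and 35.1. GV oocytes had 42.7, 42.0 and 37.2 FPKM, two-cell embryos 48.1, 47.0 and 51.0, MII oocytes 60.1, 42.4 and 65.0. Two-cell embryos in M-phase had 113, 87.6 and 122 FPKM, the highest, with no library overlapping any other stage. Despite this separation, two-cell M against two-cell did not pass in the fit of all libraries (log2 fold change 1.13, SE 0.62, adjusted p = 0.16), which takes 1 spread per gene over both fractions, but did with polysome libraries alone (adjusted p = 0.002). The stage effect had an adjusted p of 0.055.

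Eef2 had its lower values outside polysomes, at 3.61, 30.8 and 21.6 FPKM in two-cell and 27.7, 16.7 and 39.1 in two-cell M. It was 3.64-fold higher in polysomes than outside them in two-cell (log2 fold change 1.86, SE 0.62, adjusted p = 0.039) and 4.05-fold in two-cell M embryos (log2 fold change 2.02, SE 0.62, adjusted p = 0.026), without overlap in either. In the other stages the difference was also positive, 1.81 in GV (adjusted p = 0.092), 1.36 in MII, 0.62 in zygote and 0.65 in zygote M, and did not pass. Median centring turned the two-cell M difference to -0.48 (adjusted p = 0.62) and reduced that in two-cell to 1.6 (adjusted p = 0.12). Centring shifts every gene of a comparison by the same amount, so the all-gene median moved together with Eef2. Neither shift is therefore particular to Eef2. Without centring, the all-gene medians were 0.28 (two-cell) and 0.37 (two-cell M). The two-cell call was lost without non-polysome library A or any 1 polysome library (0.92 to 2.46), and the two-cell M call without non-polysome library B or polysome library A or C (1.69 to 2.31). Both were lost in fits of only the groups compared (adjusted p = 0.25 and 0.11), and the two-cell call without a filter (adjusted p = 0.071).

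Tpt1 (chr14:75845093-75848525) changed in polysomes in the first 2 of the 3 steps from interphase to M-phase, downwards and then upwards. GV oocytes had 7.09, 9.47 and 18.9 FPKM and MII oocytes 2.82, 1.39 and 2.26, every MII library below every GV library. Tpt1 fell 5.23-fold between them (log2 fold change -2.39, SE 0.47, adjusted p = 0.0014). Zygotes had 2.60, 2.77 and 3.94 FPKM and zygotes in M-phase 17.3, 12.5 and 14.7, a 4.82-fold rise without overlap (log2 fold change 2.27, SE 0.47, adjusted p = 0.0023). Two-cell (8.17, 6.81 and 9.01) and two-cell M (8.19, 10.9 and 24.6) embryos overlapped (log2 fold change 0.71, SE 0.47, adjusted p = 0.25). The order of levels had zygote M, two-cell M, GV and two-cell overlapping from one to the next, and then, apart from these, zygote and MII.

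MII was also lower than zygote M (7.11-fold, log2 fold change -2.83, SE 0.47, adjusted p = 0.00011) and lower than two-cell M (6.28-fold, log2 fold change -2.65, SE 0.47, adjusted p = 4.4e-05), and GV was 3.55-fold above zygote (log2 fold change 1.83, SE 0.47, adjusted p = 0.018). The last call was lost without GV library C or zygote library B or C (1.42 to 2.13). In the non-polysome fraction Tpt1 fell 4.61-fold from 20.6, 18.1 and 21.1 FPKM in GV to 4.29, 5.13 and 3.66 in MII (log2 fold change -2.20, SE 0.47, adjusted p = 0.0017). In two-cell embryos it was 3.5-fold lower in polysomes than outside them (log2 fold change -1.81, SE 0.47, adjusted p = 0.0097), a call that quantile normalization removed, at -1.13 (adjusted p = 0.11).

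The pseudogene Tpt1-ps3, which no 150-base coding read can tell from Tpt1, changed alike: it fell from 103 ± 26.1 FPKM in GV to 14.3 ± 3.67 in MII polysomes (log2 fold change -2.86, adjusted p = 0.00027) and rose from 25.5 ± 5.71 in zygote to 152 ± 15.4 in zygote M (2.59, adjusted p = 0.00083). With the 3 Tpt1 copies added, the 2 changes were -2.81 (adjusted p = 0.00015) and 2.56 (adjusted p = 0.00044), and the non-polysome change of two-cell M against two-cell embryos, -1.38 (adjusted p = 0.02), passed as well. Summed levels in polysomes were 115 ± 32.3 FPKM in GV, 16.4 ± 4.37 in MII, 28.6 ± 6.44 in zygote, 167 ± 17.6 in zygote M, 82.6 ± 27.1 in two-cell embryos and 113 ± 87.5 in two-cell M.

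Pabpc1 (chr15:36595661-36609668) was near the floor of detection in the polysomes of oocytes and zygotes. GV libraries had 0.0252, 0.158 and 0.254 FPKM, MII libraries 0.0396, 0.0238 and 0.0706 and zygote libraries 0.0291, 0.0170 and 0.0468, an estimated 0 to 17 fragments in each. In zygotes all 3 libraries were under 3 fragments, and zygotes in M-phase had 0.0134, 0.0769 and 0.0563 FPKM. Interphase two-cell embryos had 0.0728, 2.22 and 0.115 FPKM, of which library B, with an estimated 131 fragments, was far above the other two. Two-cell embryos in M-phase had 1.24, 4.47 and 1.40 FPKM, above every MII library (MII against two-cell M, log2 fold change -5.61, SE 1.61). Without the 12 two-cell and two-cell M libraries of both fractions, Pabpc1 had a geometric mean of 0.0622 FPKM, under the minimum for testing, so a difference from these groups was built into its being tested and is given as a description. The MII polysome libraries held an estimated 2, 1 and 4 fragments, and no adjusted p is given for this difference. With values raised to the floor of 3 fragments the difference was -4.92. Two-cell M against two-cell overlapped and did not pass (log2 fold change 2.90, SE 1.61, adjusted p = 0.16). The copy Gm16580 had 2.32 ± 2.34 FPKM in two-cell M polysomes, about as much as Pabpc1 itself (2.37 ± 1.82), and with it added MII against two-cell M was -6.50. Outside polysomes two-cell embryos had 0.843, 6.49 and 2.38 and two-cell M embryos 5.11, 8.37 and 0.959 FPKM, and the other stages had at most 1.58.

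**Figure D2:**
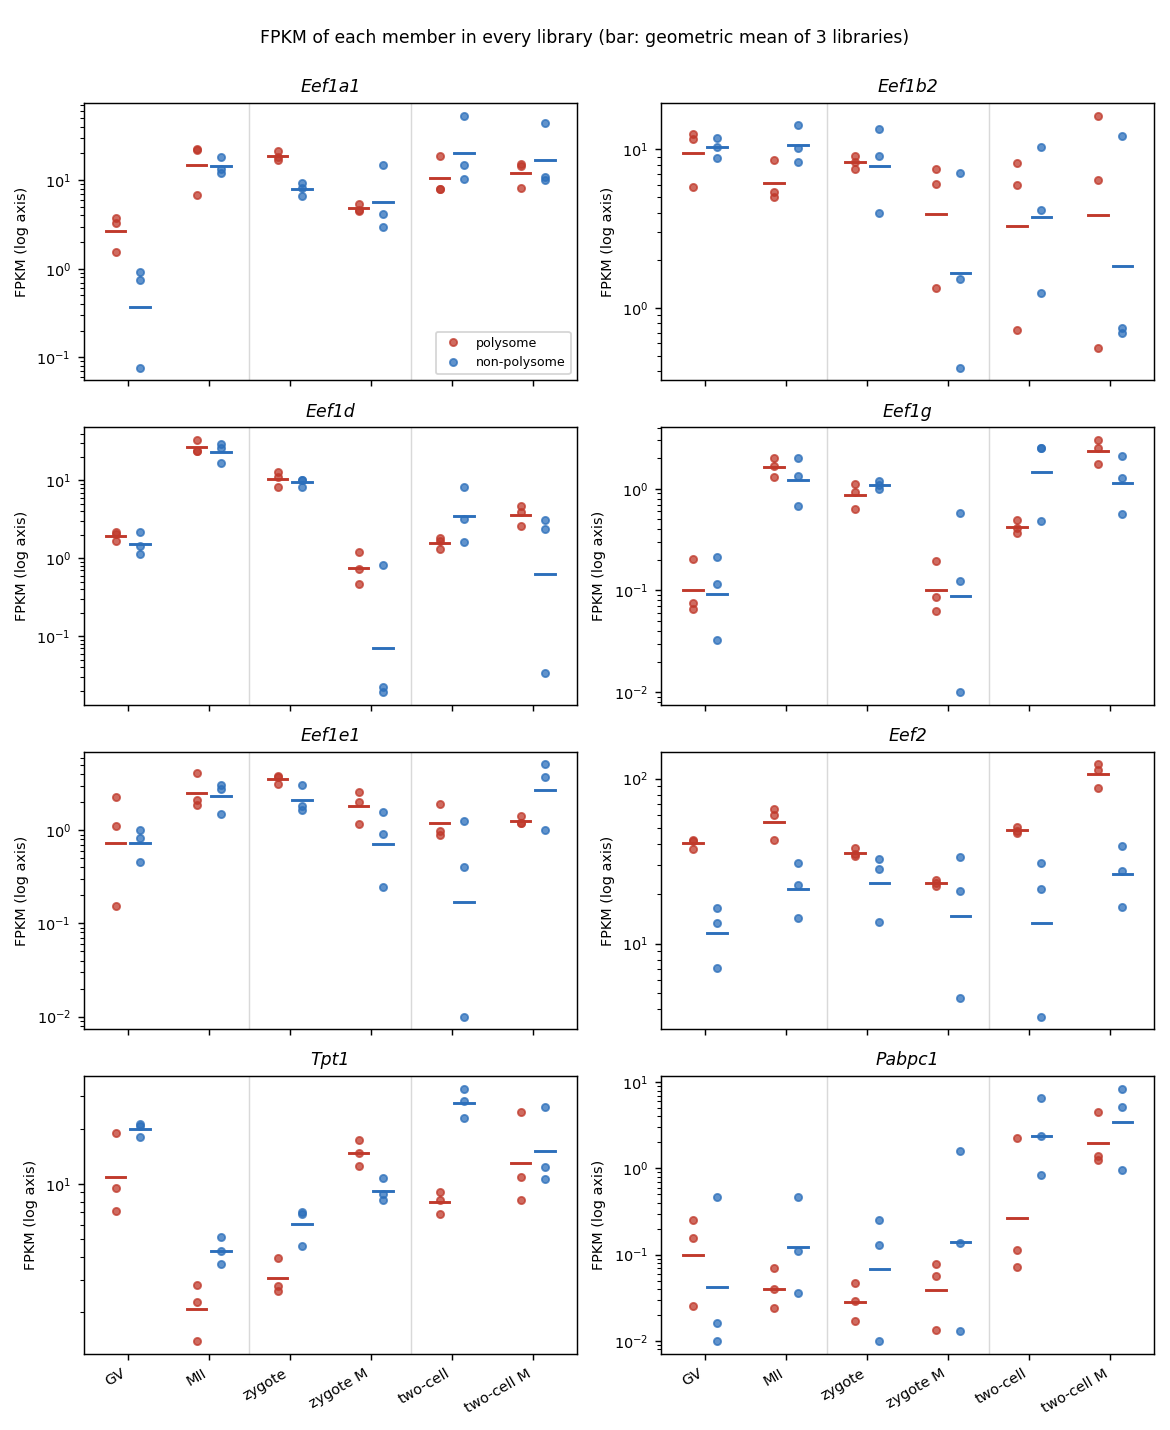
FPKM of the 8 members (log axis) by stage, with 1 point per library in polysomes (red) and outside them (blue) and a bar at the geometric mean of the 3 libraries. Eef1d and Eef1g are high in MII polysomes and low in zygote M, Tpt1 the reverse, and Eef2 is highest in two-cell M polysomes (a mean of 108 FPKM).

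One of the study's comparisons was of M-phase with interphase. From GV to MII in polysomes, Eef1g rose and Tpt1 fell, so 2 of the 8 members were called where 6.11% of all tested genes were, and the median log2 fold change was 1.12 over the members and 0.18 over all genes. With copies added, Eef1g did not pass (adjusted p = 0.54). From zygote to zygote M only Tpt1 was called, rising, against 5.75% of all genes, with medians of -1.02 for the members and -0.43 for all. In the second mitosis only Eef1g was called, rising, against 36.3% of all genes, with medians of 0.92 and -1.17. That call was lost with copies added and without any 1 of its libraries. Median centring moved the all-gene median to 0.25. It shifts every gene of a comparison by the same amount, so the median of the members moved with it. Of the 8 members, 4, 6 and 3 had groups that did not overlap in these comparisons, against 47.5%, 56.5% and 43.4% of all genes. In the non-polysome fraction, 4 members were called from GV to MII (16.6% of all genes), 2 from zygote to zygote M (10.4%) and 1 from two-cell to two-cell M (36.1%).

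**Figure D3:**
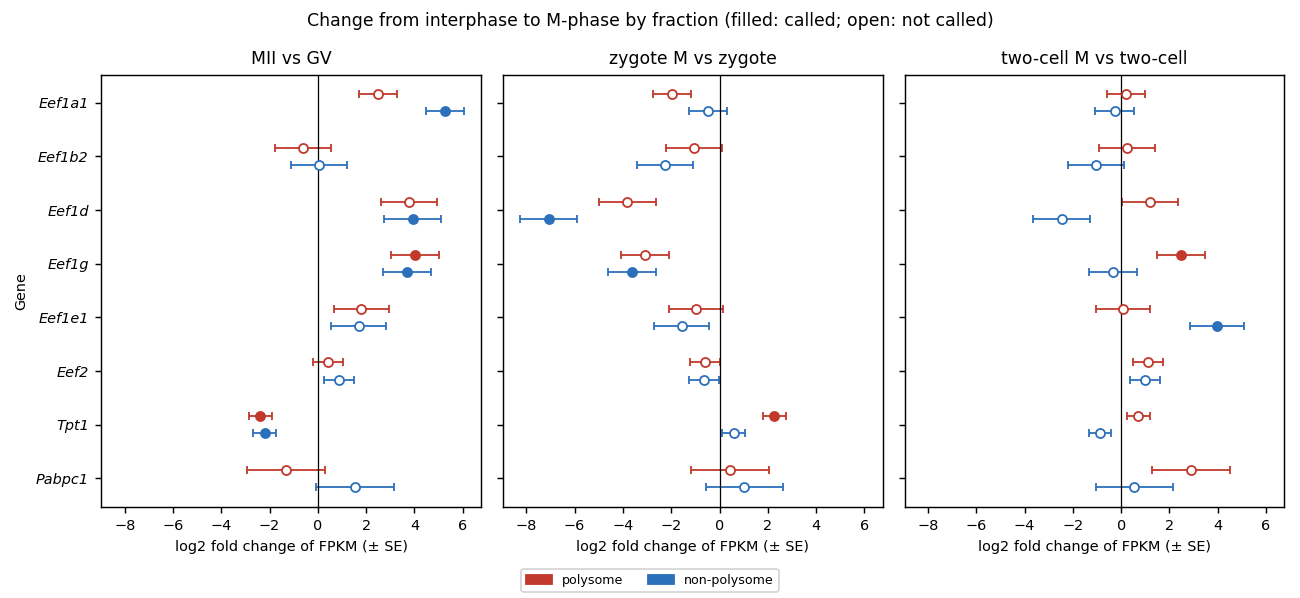
Log2 fold change of FPKM ± SE from interphase to M-phase for each member, in polysomes (red) and outside them (blue), for meiosis, the first and the second mitosis. Filled points were called. Eef1a1, Eef1d and Eef1g lie right of 0 in MII against GV and left of it in zygote M against zygote, and Tpt1 lies on the opposite side in both.

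The 3 M-phase changes in polysomes share no libraries and were compared directly. From the change in meiosis minus that in the first mitosis, 4 members differed (9.51% of all genes): Eef1d by 7.59 on the log2 scale (SE 1.66, adjusted p = 0.0026), Eef1g by 7.13 (SE 1.40, adjusted p = 0.00089), Eef1a1 by 4.44 (SE 1.12, adjusted p = 0.0093) and Tpt1 by -4.66 (SE 0.67, adjusted p = 1.7e-05). By their fitted values the 3 eEF1 genes were higher in MII than GV and lower in zygote M than zygote, although of these changes only that of Eef1g to MII passed on its own, and Tpt1 was the reverse with both changes passing. Between meiosis and the second mitosis only Tpt1 differed, by -3.10 (adjusted p = 0.0011), while 23.5% of all genes did. Between the 2 mitoses, Eef1d differed by -5.02 (adjusted p = 0.028) and Eef1g by -5.60 (adjusted p = 0.0045), against 23.7% of all genes. With copies added, Eef1g no longer passed in either, at 6.08 (adjusted p = 0.13) and -5.89 (adjusted p = 0.082), and Tpt1 passed between the mitoses as well, at 2.38 (adjusted p = 0.0092). The Eef1d difference between the mitoses was lost without two-cell library A, two-cell M library B, zygote library C or D, or zygote M library A (-5.37 to -4.68), and without a filter (adjusted p = 0.054).

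A stage effect over the 6 polysome groups was found for Eef1a1, Eef1d, Eef1g and Tpt1, where 62.9% of all tested genes had one. Their adjusted p values were 0.021, 0.004, 0.00037 and 1.6e-05 in that order. Pabpc1 had 0.012, which is no support for a stage effect since its two-cell libraries let it be tested. With copies added, those of Eef1a1 and Eef1g became 0.075 and 0.14.

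The oocyte was compared with the embryo in the same phase of the cell cycle. In interphase, GV polysomes had less Eef1a1 and more Tpt1 than zygote polysomes, 2 of 8 members where 5.61% of all genes were called. With copies added, Eef1a1 did not pass (adjusted p = 0.087). Against two-cell embryos, 0 members were called by limma, beside 16.7% of all genes. At an unadjusted p under 0.05 there were 2 (Eef1a1 -1.99 and Eef1g -2.07), beside 30.5% of all genes. In M-phase, MII polysomes had more Eef1d and Eef1g and less Tpt1 than zygote M (12.4% of all genes called), of which Eef1g did not pass with copies added (adjusted p = 0.086). Compared with two-cell M, MII polysomes had more Eef1d and less Tpt1 (53.0%), and Pabpc1 was lower in MII by the difference built into its being tested. The all-gene median there was 2.64, with 45.2% called higher and 7.86% lower, beside 2.86 for Eef1d. With median centring the Eef1d value was 0.66 (adjusted p = 0.7). The comparisons that use the GV or MII libraries share them, so their values are not independent of each other.

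Whether a member's mRNA lay more in polysomes or outside them was tested within each stage. Besides Eef1a1 in GV (4.96% of all genes called), Eef2 and Tpt1 in two-cell (16.1%) and Eef2 in two-cell M (14.8%), no member was called by limma, 0 of 8 in MII (0.753%), in zygote (1.38%) and in zygote M (1.92%). At an unadjusted p under 0.05 there were 2 in MII (6.14% of all genes), 1 in zygote (7.38%) and 1 in zygote M (12.3%). Tpt1 was lower in polysomes in every stage but zygote M by log2 values of -0.88 in GV, -1.06 in MII, -0.99 in zygote, -1.81 in two-cell embryos and -0.22 in two-cell M, with 0.68 in zygote M, and passed in two-cell only. The change from interphase to M-phase did not differ between fractions for any member in limma's interaction test, 0 of 8 in each (0.163% of all genes in meiosis, 0.289% in the first and 5.75% in the second mitosis). At an unadjusted p under 0.05 there were 1, 1 and 3 members, beside 7.37%, 7.52% and 19.2% of all genes. Both fractions of a gradient are a share of their own library, so a ratio between them is no count of mRNA molecules.

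**Figure D4:**
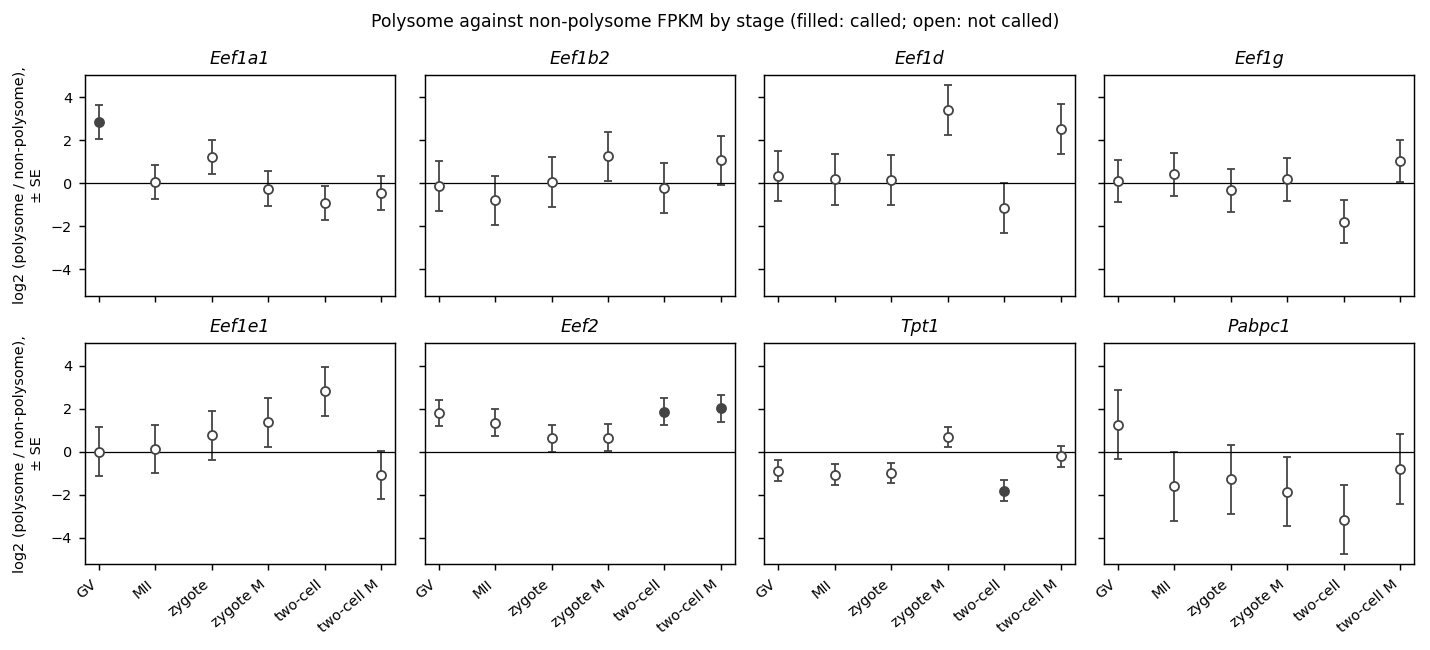
Log2 ratio of polysome to non-polysome FPKM ± SE for each member by stage, with filled points called. Eef2 lies above 0 in all 6 stages and is called in two-cell and two-cell M, Tpt1 is below 0 in all but zygote M and called in two-cell, and Eef1a1 is called above 0 in GV.

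Other genes of the pathway were taken from lists by role, and medians are log2 fold changes in polysomes in meiosis, the first and the second mitosis, in that order. Median centring shifts all genes of a comparison by the same amount. A list median that turned under it moved together with that of all genes, whose medians are given here without centring. Of all genes tested, 3.36% were called higher and 2.75% lower in meiosis, 3.24% and 2.51% in the first mitosis, and 8.13% and 28.1% in the second. Of 7 tested other elongation and termination factors, 0 were called from GV to MII, 1 rose from zygote to zygote M, and 3 rose and 2 fell from two-cell to two-cell M. Eif5a, whose protein helps the ribosome form difficult peptide bonds, rose from 31.3 ± 6.65 to 121 ± 38.1 FPKM in the first mitosis (log2 fold change 1.92, adjusted p = 0.00029) and from 51.4 ± 14.1 to 107 ± 8.10 in the second (log2 fold change 1.09, adjusted p = 0.012). Etf1, the release factor eRF1, rose from 0.395 ± 0.290 to 3.27 ± 0.925 FPKM (log2 fold change 3.56, adjusted p = 0.0067), and Gspt2, its partner eRF3b, fell from 0.955 ± 0.389 FPKM to 0.01, the value listed for 0 fragments, in all 3 two-cell M libraries. The medians of this list were -0.81, -0.37 and -1.78 beside 0.18, -0.43 and -1.17 over all genes tested. The second turned to 0.09 with median centring and the third to 0.08 with quantile normalization, which called 2 genes lower in meiosis, 1 higher and 1 lower in the first mitosis and 2 higher and 1 lower in the second.

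Regulators and modifiers of eEF1A and eEF2 had 5 tested genes, with 1 rising from GV to MII, 0 called from zygote to zygote M, and 1 rising and 1 falling from two-cell to two-cell M. Dph3, which takes part in making diphthamide, the modified histidine of eEF2, rose from 7.08 ± 4.34 FPKM in GV to 24.3 ± 3.91 in MII (log2 fold change 1.93, adjusted p = 0.01). Eef2k, the kinase that inhibits eEF2 by phosphorylation, fell from 3.46 ± 1.26 FPKM in two-cell to 0.796 ± 0.719 in two-cell M (log2 fold change -3.56, adjusted p = 0.021). The medians of this list were 2.35, 0.09 and -0.89, and the last was 0.32 with quantile normalization and 0.52 with median centring, which shifts all genes alike. From GV to MII, 3 genes passed with quantile normalization, all higher, and 0 with median centring, under which 0 fell in the second mitosis. Of 9 tested partners of the eEF1 and multisynthetase complexes, 0 were called in meiosis, 1 fell in the first mitosis and 0 were called in the second, with medians of 1.64, -1.6 and -0.68. The last turned to 1.07 with quantile normalization (1 gene higher) and 0.73 with median centring (2 higher), and quantile normalization also called 2 higher in meiosis and 2 lower in the first mitosis. Qars, the glutaminyl-tRNA synthetase of the same complex as Eef1e1, was at 73.2 ± 22.4 FPKM in MII and 10.9 ± 1.96 in zygote M (log2 fold change 2.71, adjusted p = 0.034). In MII against zygote M, 3 genes of this list were called higher, beside 8.95% of all genes, and the list median was 2.71 beside 0.46. Quantile normalization called 4 higher there and median centring 1. The 4 tested mitochondrial elongation factors were called in 0 of the 3, with medians of 0.96, -0.65 and -0.19, of which the last turned to 1.29 with quantile normalization and 1.22 with median centring, each with 1 gene higher. Their first-mitosis median was -0.07 with quantile normalization, which called 1 gene higher, and -0.19 with median centring.

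In the poly(A)-binding family, 0 of 7 tested genes were called from GV to MII, 1 fell in the first mitosis and 2 fell in the second, with medians of -0.77, -0.70 and 0.05. Pabpc1l, the poly(A)-binding protein of oocytes and early embryos, had 25.2 ± 2.14 FPKM in zygote and 12.3 ± 3.87 in two-cell polysomes and fell to 0.780 ± 0.662 in two-cell M (log2 fold change -5.43, adjusted p = 0.00056), where Pabpc1 had 2.37 ± 1.82. Pabpn1l, an oocyte member of the nuclear family, had 553 ± 41.0 FPKM in MII, 231 ± 22.8 in zygote and 24.4 ± 4.32 in zygote M (log2 fold change -3.25, adjusted p = 0.024 for the last step). The last median was 0.53 with quantile normalization and 1.46 with median centring, each with 1 gene higher and 2 lower. In the first mitosis median centring called 0 genes and quantile normalization 1 higher and 1 lower, and the latter also called 1 lower in meiosis. Of 13 tested mRNAs listed as TOP mRNAs outside the ribosomal proteins, 1 fell in meiosis, 0 were called in the first mitosis, and 1 rose and 2 fell in the second, with medians of -0.10, -0.61 and 0.29. In the second mitosis 4 rose and 2 fell with quantile normalization (median 1.18), and 5 rose and 0 fell with median centring (1.71). In the first mitosis each scaling called 1 higher, with medians of -0.16 and -0.15, and quantile normalization also called 1 higher in meiosis. Of 12 promoters of this list, 3 had a pyrimidine run at +1 and 6 one near the start. Pfdn5, a prefoldin subunit, fell from 90.3 ± 28.7 FPKM in GV to 13.7 ± 1.15 in MII (log2 fold change -2.67, adjusted p = 6.4e-05), and Eif3f, an initiation factor subunit, rose from 0.777 ± 0.882 to 12.2 ± 7.49 in the second mitosis (log2 fold change 5.09, adjusted p = 0.0018). Rack1, a protein of the small ribosomal subunit, was at 62.1 ± 6.78 FPKM in GV and 9.68 ± 1.97 in zygote (log2 fold change 2.70, adjusted p = 0.00034). TOP regulators, 7 of them tested, were called in 0, 0 and 1 gene, with medians of -0.45, -0.20 and 0.73, of which the second turned to 0.94 with quantile normalization and 0.25 with median centring. The third was 1.90 (3 genes higher) and 2.14 (2 higher) under them, and quantile normalization also called 1 gene lower in meiosis and 1 higher in the first mitosis.

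Ribosomal protein mRNAs, the largest TOP class, are given for comparison. Of 79 tested genes, 19 rose and 4 fell from GV to MII (median 1.5 beside 0.18 over all genes, of which 3.36% rose and 2.75% fell), 4 rose and 18 fell from zygote to zygote M (-0.80 beside -0.43, with 3.24% and 2.51%) and 54 rose and 1 fell from two-cell to two-cell M (2.73 beside -1.17, with 8.13% and 28.1%). For the ribosomal proteins both quantile normalization and median centring kept the sign of these 3 medians, although the zygote M one shrank to -0.07 with quantile normalization. The calls changed more, with 12 higher and 21 lower (quantile normalization) and 6 higher and 12 lower (median centring) in the first mitosis, 64 and 71 higher in the second, and 28 and 14 higher in meiosis. The 8 members had medians of 1.12, -1.02 and 0.92 in the same comparisons.

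The gene whose polysome profile over the 18 libraries was most like the mean of the members was Tomm22 (Pearson r 0.83), then Rpl36al (0.81), Nhp2 (0.81), Trir (0.80) and 2310011J03Rik (0.78), out of 1028 genes compared. For single members the most alike were Eif2b4 for Eef1d (0.98), Mrpl43 for Eef2 (0.96), Rps9 for Eef1g (0.87), Id3 for Pabpc1 (0.87), Cdc34 for Tpt1 (0.85), Jpt1 for Eef1a1 (0.84), Lrrc14 for Eef1e1 (0.73) and Hist1h2aa for Eef1b2 (0.70). Among the members themselves, Eef1a1 and Eef1g had r 0.80, Eef2 and Eef1g 0.73, Eef1d and Eef1g 0.71, and Eef1d and Tpt1 -0.81. The points are the same 18 libraries in each case and share depth and stage, and these values are descriptions only.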

How the data were processed

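Polysome and non-polysome RNA of mouse oocytes and embryos was amplified with SMART-seq v4, made into Nextera XT libraries and sequenced as 150-base paired ends. The authors trimmed reads with Trim Galore 0.4.1, aligned them to GRCm38 with STAR 2.5.3a and quantified genes in Partek, and deposited normalized FPKM, to which every value has 0.01 added. RefSeq genes are named in the methods, but the table is annotated with Ensembl gene types, and how reads that fit several genes were counted is not given in the sources used here. Of 38 samples, 36 had a column, and the 2 zygote samples A, without one, were not used here.

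FPKM values were taken as log2 with nothing added and fitted with limma 3.58.1 (R 4.3.3), using 1 mean for each of the 12 groups, all 36 libraries and a mean-variance trend. Tested genes had a geometric mean of at least 0.1 FPKM (7967 of 23125). P values were adjusted by Benjamini-Hochberg over all tested genes of each comparison, and a gene was called at an adjusted p under 0.05 and a fold over 2, or at an adjusted p under 0.05 for differences between changes and for the stage test. All adjusted p values are two-sided and from limma. Fragments were estimated from the steps of low values of 2963 genes with 1 exon longer than 400 bases, where 62.3% to 75.3% of values up to 20 fragments lay within 0.1 of a whole number (20% if evenly spread), so they are estimates, and no count test was run. Copies were found with BLAST 2.17.0, and other steps used Python 3.11.15 with numpy 2.4.6, pandas 2.3.3 and matplotlib 3.10.9.

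The members and gene lists were chosen with earlier results of these data known. Of each list, up to 4 genes per comparison could be named, by size of change among called genes whose mean reached 1 FPKM, and a selection of these is described. Likeness was Pearson's r of log2 FPKM over the 18 polysome libraries, among protein-coding genes averaging 10 FPKM or more there, and the 5 highest for the members' mean and the highest for each member are named. The model was tested on simulated data. Alternatives were other pseudocounts, filters, scalings, sets of libraries and a replicate block, and leaving out each library. Adding copies and raising low values to 3 fragments were chosen after seeing the data.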

Additional observations from a re-analysis of the deposited data

Results flagged for a closer look

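The change from interphase to M-phase in polysomes differed between cell divisions for 4 members, by limma's test of the difference. The change in meiosis (MII minus GV) exceeded that in the first mitosis (zygote M minus zygote) by 4.44 on the log2 scale for Eef1a1 (adjusted p = 0.0093), 7.59 for Eef1d (0.0026) and 7.13 for Eef1g (0.00089), and for Tpt1 the same difference was -4.66 (1.7e-05). For Tpt1 the change in meiosis minus that in the second mitosis was -3.10 (0.0011). The change in the first minus that in the second mitosis was -5.02 for Eef1d (0.028) and -5.60 for Eef1g (0.0045). The values of Eef1g did not pass with its pseudogenes added, and that of Eef1d between the mitoses did not pass without some single libraries.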

How the results depend on the processing

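Of 30 called comparisons of single members, 14 kept their call under every alternative, 17 without each single library and 13 under both. Each of these counts includes Pabpc1 in MII against two-cell M polysomes, a difference built into its being tested, so its being kept is no support. With pseudogenes added, 8 calls were lost, 7 of them of Eef1g. Members called in the polysome M-phase comparisons were 4, and 8 with 0.1 or 1 added to FPKM, 9 with quantile normalization, 7 with median centring, 10 with only the groups compared, 11 with only the fraction compared, 7 with values raised to 3 fragments, 2 with copies added, and 2 to 4 without single libraries (2 without MII library C or GV library B). The share of all tested genes called in these 3 comparisons moved as well, from 16% to 19.3% and 19.4% with 0.1 and 1 added, 23.8% with quantile normalization, 14.6% with median centring, 27.0% with only the groups and 24.9% with only the fraction compared. It was 16.1% with copies added and 16.1% with values raised to 3 fragments, which was done for the members only. Oocyte against embryo gave 8 calls, among them Pabpc1 in MII against two-cell M, which its two-cell libraries let be tested. There were 14 with quantile normalization or one fraction alone, 13 with only the groups compared and 6 to 8 without single libraries. All genes went from 21.9% to 28.8% (quantile normalization), 31.8% (one fraction) and 35.3% (groups). The non-polysome comparisons gave 7 calls (21.1% of all genes), 4 with that fraction alone (13.6%) and 5 to 9 without single libraries. Polysome against non-polysome gave 4 (6.64%), 2 without a filter (2.89%) or with only the groups compared (6.63%), and 3 to 5 without single libraries. Differences between fractions were 0 (2.07%), and 1 with 1 added (Eef1g, 2.5%), with median centring (Eef1e1, 6.18%) or with only the groups compared (Tpt1, 2.75%), and 0 to 1 without single libraries. Differences between M-phase changes were 7, 11 with only the groups compared, 12 with one fraction alone and 6 to 8 without single libraries, where all genes went from 18.9% to 33.7% and 31.3%. The stage test gave 5 members, among them Pabpc1, which its two-cell libraries let be tested, 3 with copies added and 4 to 5 without single libraries. The cause of these shifts was not tested, beyond the smaller sets of libraries in some. Median centring shifts all genes of a comparison by the same amount, and with it Eef2 in two-cell M polysomes against non-polysomes was -0.48 (adjusted p = 0.62). It also moved the all-gene median of two-cell M against two-cell polysomes from -1.17 to 0.25, and the share of that comparison's calls that were higher from 22.4% to 54.4% (49.9% with quantile normalization).

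A replicate block by library letter gave 4 calls in the polysome M-phase comparisons (15.3% of all genes), 7 in oocyte against embryo (21.3%) and 6 in the non-polysome ones (19.5%). It lost Eef1g in two-cell M against two-cell polysomes (adjusted p = 0.06), Eef1a1 in GV against zygote polysomes (0.075) and Eef1g in zygote M against zygote non-polysomes (0.061), and gained Eef1d in MII against GV polysomes (0.039). The labels do not say that a letter marks a shared gradient. Deviations of the 2 fractions of one stage and letter correlated by 0.0756 on average over 18 pairs (6 above 0.1). Those of one letter in different stages correlated by 0.0205 in polysomes and 0.0176 outside them, over 40 pairs each. The letters were therefore not taken as pairs. A block by stage and letter, run for the comparisons of fractions, lost 0 calls. Pabpc1 in oocytes and zygotes and Eef1g in GV and zygote M held few fragments, which limits what their values can show.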
